A study of Mus musculus with 2 samples.

Results

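The 10 genes described here encode the TGF-beta ligands (Tgfb1, Tgfb2, Tgfb3), the TGF-beta receptors (Tgfbr1, Tgfbr2), the inhibin beta subunits that build activins (Inhba, Inhbb, Inhbc, Inhbe) and follistatin (Fst). They were chosen by symbol, from probe sets that name exactly 1 gene in the platform annotation. Each gene had 1 such probe set, so the group is 10 of 19938 genes measured by 21789 such probe sets, and 0 probe sets name a member together with another gene. Expression was measured by 1 array of hepatocellular carcinoma tissue from wild-type mice and 1 array of such tissue from HLF-deficient mice. HLF, hepatic leukemia factor, is a transcription factor of the PAR bZIP family. Tumours of both genotypes were induced with DEN, diethylnitrosamine, a chemical carcinogen of the liver. Strain, sex, age, the HLF allele, the DEN dose and whether an array holds RNA of 1 mouse or of several are details not given in the sources used here.

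TGF-beta ligands are secreted in a latent form and, once released, bind TGFBR2, which recruits and phosphorylates TGFBR1; the kinase then acts on SMAD2 and SMAD3, which enter the nucleus with SMAD4. Activins are dimers of inhibin beta subunits that signal through their own type II and type I receptors to the same SMADs, and follistatin binds activins and keeps them from their receptors. In liver, Inhbc and Inhbe are expressed mainly by hepatocytes, and TGF-beta is known for restraining hepatocyte growth and for activating stellate cells.

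Levels are RMA values in log2 units, and each difference is HLF-deficient minus wild-type, so that 1 on this scale is 2-fold. With 1 array per genotype there is no p-value or SD between tumours, so no difference could be set against the variation from tumour to tumour. The number of arrays limits the precision. A floor at a log2 value of 2.98 marks the level under which a probe set is not told from background, and the 14575 genes at or above it on at least 1 array were compared. The 2 arrays correlated at r = 0.986 over all 35556 probe sets, which are not independent. Hlf, the targeted gene, was 2.54-fold lower in the HLF-deficient tumour (5.13 against 3.79) but stayed above the floor there, and the sources used here do not say which exons its probe set covers. Jun, which encodes an AP-1 subunit, was higher by 3.10-fold.

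Promoter windows of GRCm38.p6 were found for 8 of the 10 genes, with a pair of start sites for Tgfbr1. Each window is 300 bases long and reaches from 250 bases before the start site to 50 after it. Tgfb3 and Fst had no window in this set, though both genes are in the RefSeq table. The windows were searched on both strands for a PAR bZIP site, the kind of site HLF binds (TTACGTAA, or TTATGTAA, which reads TTACATAA on the other strand), for the AP-1 site TGAGTCA, the cyclic AMP response element TGACGTCA, the composite C/EBP-ATF element TGATGCAA and the short SMAD box CAGAC. The motifs were chosen after the expression values were known. Shown here are the window of Inhbb, the gene with the largest difference, and the 2 windows with a bZIP-type match, Inhba and Inhbe, in lower case with matches in capitals. The window of Inhbb is chr1:119422199-119422498 on the minus strand, that of Inhba is chr13:16011601-16011900 on the plus strand and that of Inhbe is chr10:127351799-127352098 on the minus strand. All run 5′ to 3′ in the direction of the gene.
Inhbb: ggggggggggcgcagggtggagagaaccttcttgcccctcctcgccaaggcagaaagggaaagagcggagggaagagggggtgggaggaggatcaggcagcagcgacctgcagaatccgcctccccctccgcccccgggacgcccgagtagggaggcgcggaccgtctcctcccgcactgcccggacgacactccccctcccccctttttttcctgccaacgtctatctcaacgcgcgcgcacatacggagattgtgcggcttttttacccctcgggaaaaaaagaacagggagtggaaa
Inhba: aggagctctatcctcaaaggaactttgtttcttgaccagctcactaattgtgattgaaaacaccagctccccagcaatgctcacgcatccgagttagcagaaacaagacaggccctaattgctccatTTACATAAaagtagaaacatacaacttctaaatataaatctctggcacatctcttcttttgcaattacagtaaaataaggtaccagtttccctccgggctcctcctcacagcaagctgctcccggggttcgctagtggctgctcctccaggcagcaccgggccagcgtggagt
Inhbe: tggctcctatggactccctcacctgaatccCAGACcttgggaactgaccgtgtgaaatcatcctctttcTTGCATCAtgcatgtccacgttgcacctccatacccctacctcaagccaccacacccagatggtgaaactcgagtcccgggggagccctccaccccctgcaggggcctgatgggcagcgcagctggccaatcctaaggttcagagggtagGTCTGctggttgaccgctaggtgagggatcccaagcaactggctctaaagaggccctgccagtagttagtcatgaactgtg

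The Inhbb window, with 64.3% G and C, held none of the searched letters on either strand. The Inhba window, with 47.7% G and C, held the PAR bZIP variant as TTACATAA, its first base 123 bases before the start site; 0.938% of all 32851 promoter windows hold that variant and 0.119% hold TTACGTAA. The Inhbe window held the C/EBP-ATF composite, read as TTGCATCA on the gene's strand and starting 181 bases before the start site, which 0.895% of all windows hold. It also held the SMAD box, which was in 5 of the 9 windows of these genes and in 49.6% of all windows. AP-1 and cyclic AMP response elements, present in 5.20% and 1.79% of all windows, were in 0 of the 9. The 6 motifs did not overlap one another in the windows shown. A match is a description of letters and shows no binding.

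All 10 genes had a higher value in the HLF-deficient tumour. Their median difference was 0.45, against 0.07 for all genes compared, of which 58.2% had a value above 0. Of the 10, 2 were higher by at least 2-fold, Inhbb and Fst, against 1.5% of all genes, and 0 were lower by 2-fold, against 0.364%. Under a 1.5-fold rule Inhbe joined them, which makes 3 of 10 higher against 6.37% of all genes and 0 lower against 3.11%. That count was 5 with the arrays centred, against 11.5% of all genes, and 2 after quantile or loess normalization, against 5.12% and 5.34%, settings for this count that were chosen after seeing the data. All 10 genes were at or above the floor on both arrays.

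**Figure D1:**
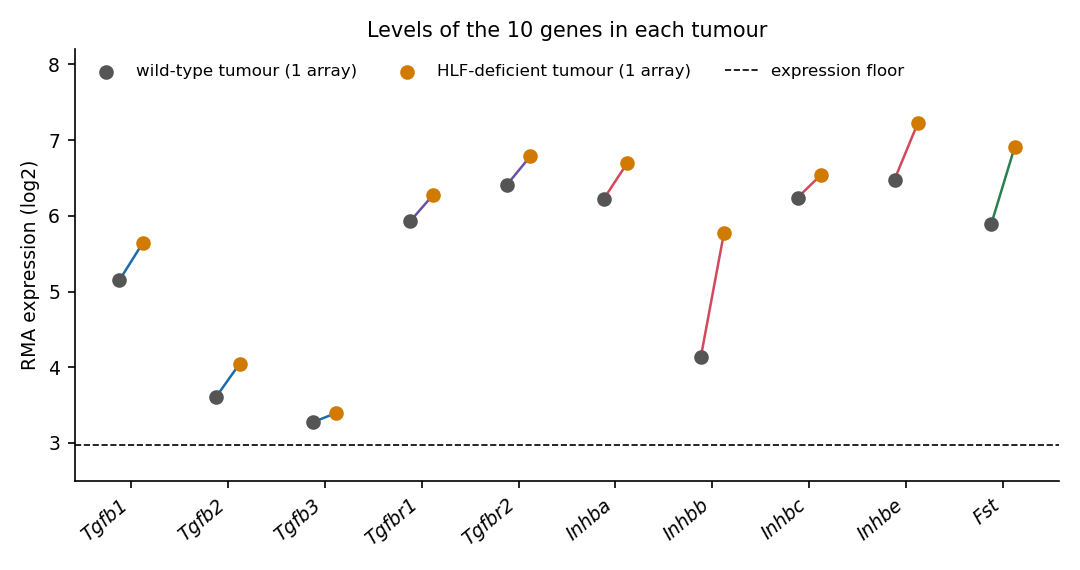
RMA expression (log2) of the 10 genes in the wild-type tumour (grey) and the HLF-deficient tumour (orange), 1 array each, joined by a line coloured by role; the dashed line is the expression floor of 2.98. Each orange point lies above its grey partner, with the longest step for Inhbb, from 4.13 to 5.78. Levels of different genes come from different probes and are not comparable with one another.

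Among the inhibin beta subunits, Inhbb stood out. It encodes the beta B subunit of activin B and stood at a log2 level of 4.13 on the wild-type array and 5.78 on the HLF-deficient array. The difference of 1.65 is 3.13-fold and ranked 53rd from the top among 14575 genes. This call did not hang on the scaling: the fold was 3.41 with the arrays centred on their medians, 3.05 after quantile normalization and 3.02 after removal of a loess trend.

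Inhbe encodes the beta E subunit, a hepatokine. It went from a level of 6.48 in wild-type tissue to 7.22 in HLF-deficient tissue, 0.75 apart or 1.68-fold, at rank 495. After quantile or loess normalization the fold was 1.47 and 1.49, under the 1.5-fold line. Inhba, for the beta A subunit of activin A, went from 6.23 to 6.69, a difference of 0.47 or 1.38-fold, which was 1.51-fold with the arrays centred. Inhbc, for the beta C subunit, went from 6.24 to 6.54, a difference of 0.30. Inhbc and Inhbe follow each other in the gene order of chromosome 10 with 0 genes of the RefSeq table starting between them, and of this neighbouring pair Inhbe had the larger difference under each of the 4 scalings.

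Follistatin, the secreted antagonist of activins, went from a log2 level of 5.90 in wild-type tissue to 6.91 in HLF-deficient tissue. The difference of 1.01 is 2.01-fold, at rank 217 of 14575, so Fst lay just past the 2-fold line. It fell short of it after quantile normalization (1.76-fold) and after loess (1.79-fold) and passed it with the arrays centred (2.19-fold). Thus a subunit of activin and its antagonist both had values among the upper 2% of differences: 99.6% of the genes compared had a lower difference than Inhbb and 98.5% a lower one than Fst.

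The TGF-beta ligands differed less than Inhbb, Fst and Inhbe with the values as deposited, though Tgfb1 had a larger difference than Inhba and Inhbc. Tgfb1, the ligand best known from liver fibrosis, went from 5.15 to 5.64 from wild-type to HLF-deficient tissue, which is a difference of 0.49 or 1.40-fold. Tgfb2 went from 3.61 to 4.05, a difference of 0.43 or 1.35-fold. Tgfb3 was nearest to the floor and nearly level, at 3.28 and 3.40, a difference of 0.12 or 1.09-fold. None of the 3 reached 1.5-fold with the values as deposited, and Tgfb1 did with the arrays centred (1.53-fold). After quantile normalization Tgfb1, Tgfb2 and Tgfb3 were at 0.36, 0.55 and 0.28, beside 0.56 for Inhbe, 0.27 for Inhba and 0.11 for Inhbc.

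Both receptor genes had small positive differences of like size. Tgfbr1, the type I kinase, went from 5.93 to 6.28, a difference of 0.35. Tgfbr2, the type II kinase that binds the ligand first, went from 6.41 to 6.79, a difference of 0.38. After quantile normalization these were 0.16 and 0.19.

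**Figure D2:**
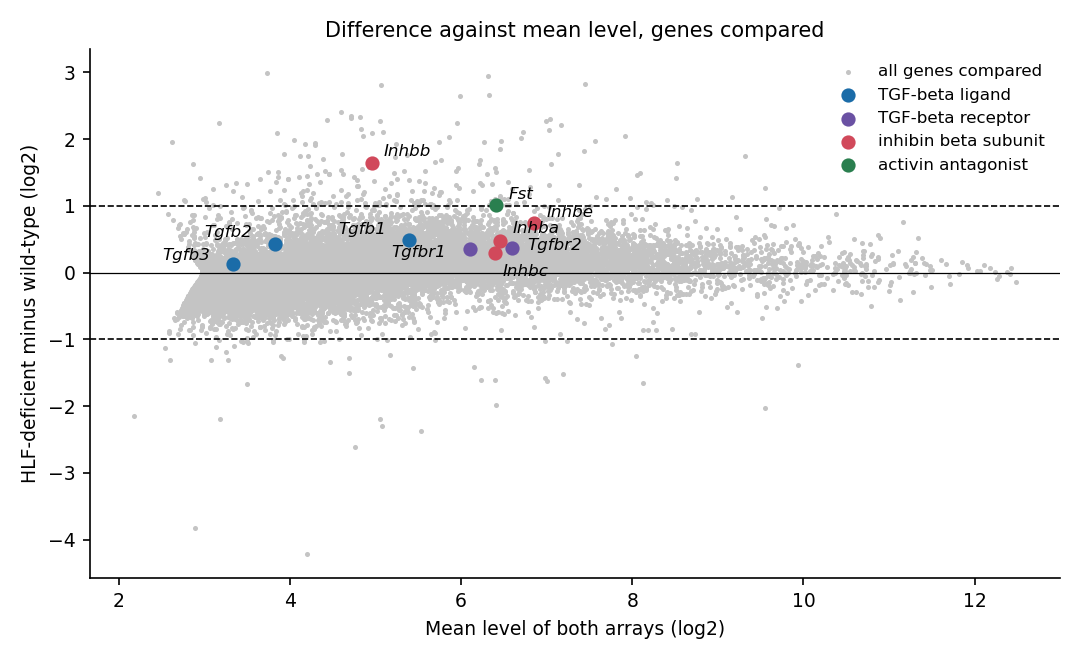
Difference (HLF-deficient minus wild-type, log2) against the mean level of both arrays (log2) for the 14575 genes compared (light grey) and the 10 genes, coloured by role; dashed lines mark 2-fold. Inhbb at 1.65 lies clear of the 2-fold line, Fst at 1.01 sits on it, and the other genes lie between 0.12 and 0.75, within the grey cloud.

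A guide to technical spread came from 739 genes with at least 2 probe sets at or above the floor, in which the SD of the difference of a probe set was 0.24; it holds no spread between mice or tumours. The differences of 9 of the 10 genes were above this, all but that of Tgfb3, but so were those of 31.1% of all genes compared, and 50.5% of all genes lay beyond it in either direction. After quantile normalization 7 of the 10 were above it, against 22.5% of all genes, and after loess normalization 7, against 23.5%, with Tgfbr1, Tgfbr2 and Inhbc falling below it and Tgfb3 rising above it to 0.28. Quantile normalization makes the distributions of the 2 arrays equal, and the loess step removes the trend of the difference with level. Under these 2 scalings all 10 genes kept a positive value, with medians of 0.32 and 0.34, against 53.6% and 55.2% of all genes.

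**Figure D3:**
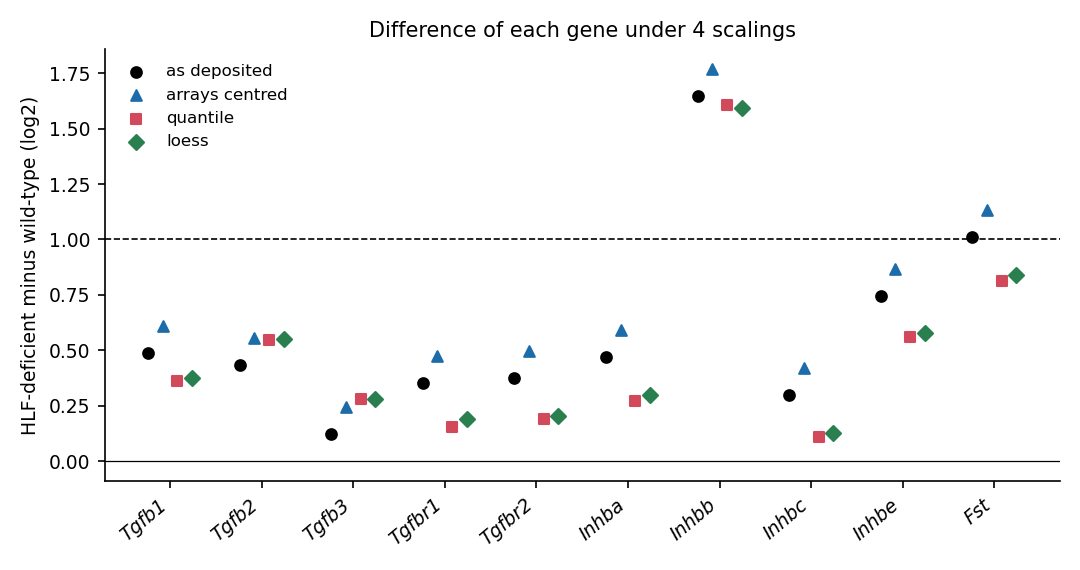
Difference (HLF-deficient minus wild-type, log2) of each of the 10 genes with the values as deposited (circles), each array centred (triangles), quantile normalization (squares) and loess trend removed (diamonds); the dashed line marks 2-fold. All points lie above 0, Inhbb stays above 1.59 under each scaling, and Fst crosses the 2-fold line between them.

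Receptors and co-receptors that act with these ligands had small differences. Of 10 listed activin and accessory receptors, 8 were compared. Of these receptors, 0 passed 2-fold in either direction, against 1.5% of all genes higher and 0.364% lower. The median of the receptors was 0.27, and the values ran from -0.25 for Tgfbr3, the co-receptor betaglycan, to 0.47 for Acvr1, a type I receptor. The type II activin receptors Acvr2a and Acvr2b were at 0.47 and -0.09, the latter turning to 0.03 with the arrays centred and to just above 0 after quantile or loess normalization. Acvr1b, the type I receptor of activin A, was at 0.25, and Acvr1c, the type I receptor ALK7, was below the floor on both arrays. These 4 genes fall outside the naming rule and were picked with their values in view.

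Of 6 other extracellular regulators of activins and related ligands, 5 were compared. Their median was -0.14, and none passed 2-fold, against 1.5% of all genes higher and 0.364% lower. Inha, whose product pairs with beta subunits to form inhibin, had the lowest value, -0.44, with levels of 3.93 (wild-type) and 3.49 (HLF-deficient). Fstl1, a follistatin-like glycoprotein, had the highest, 0.69. The follistatin-like activin antagonist Fstl3, named after its value was seen, was at -0.14, unlike Fst.

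For storage and activation of latent TGF-beta, 9 of 12 listed genes were compared, with a median of 0.06. Thbs1, the matrix protein thrombospondin-1, which can activate latent TGF-beta, was 2.16-fold higher, with levels of 4.28 (wild-type) and 5.39 (HLF-deficient). It was the only 1 of the 9 past 2-fold, against 1.5% of all genes higher and 0.364% lower. Itgav, the integrin alpha V subunit, was next at 0.89, or 1.01 with the arrays centred. The latent TGF-beta binding protein gene Ltbp3 had the lowest value, -0.18. Nrros and Itgb6 were below the floor on both arrays, and Fbn1 was not analysed here.

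Downstream, all 15 listed SMADs and intracellular modulators were compared, and 13 had values above 0, against 58.2% of all genes. None passed 2-fold, against 1.5% of all genes higher and 0.364% lower. The median was 0.45, or 0.27 after quantile and 0.28 after loess normalization. Skil, the SMAD corepressor SnoN and itself a TGF-beta target, had the highest value, 0.86 or 1.82-fold. Tgif2, a homeodomain corepressor, had the lowest, -0.47. The signal carriers Smad2, Smad3 and Smad4 were at 0.35, 0.55 and 0.45, and the inhibitory Smad7 at -0.08, turning to 0.04 with the arrays centred; these 4 were likewise picked with their values in view.

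Smad7, Skil and Pmepa1 of the SMAD list are also among the 22 listed transcriptional targets of TGF-beta, so the lists are not separate. Of the 22 targets, 20 were compared. Among them 1 was higher by 2-fold and 0 were lower, against 1.5% and 0.364% of all genes. The median was 0.30 against 0.07 for all genes. The 1 gene was Klf10, a zinc finger factor induced early by TGF-beta, with levels of 4.96 (wild-type) and 6.17 (HLF-deficient), which is 2.32-fold. Snai2 had the lowest value, -0.20. The collagen genes Col1a1, Col1a2 and Col3a1 were at 0.32, 0.76 and 0.53, and at 0.12, 0.61 and 0.33 after quantile normalization. The contractile genes Acta2 and Tagln were at 0.23 and -0.01, and at 0.03 and -0.03 after quantile normalization. Tagln turned to 0.11 with the arrays centred. These 5 were likewise picked with their values in view. The median of the list was 0.13 after quantile and 0.17 after loess normalization, against 0.02 and 0.04 for all genes. Several of these targets respond to other signals as well, and Skil and Bhlhe40 (0.82) are not specific to TGF-beta.

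The BMP branch of the same ligand superfamily, listed for comparison, was measured by 20 of 21 genes, of which 19 were compared. Their median was 0.00, or 0.12 with the arrays centred, and 9 of the 19 were above 0, against 58.2% of all genes. Bmp4, a ligand, had the highest value, 0.80. Hamp, the iron hormone hepcidin and a BMP target in hepatocytes, was lower, with levels of 10.62 (wild-type) and 9.24 (HLF-deficient). It was the only gene of the list past 2-fold, against 1.5% of all genes higher and 0.364% lower. The 10 genes had a median of 0.45; the difference between these medians was not tested.

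**Figure D4:**
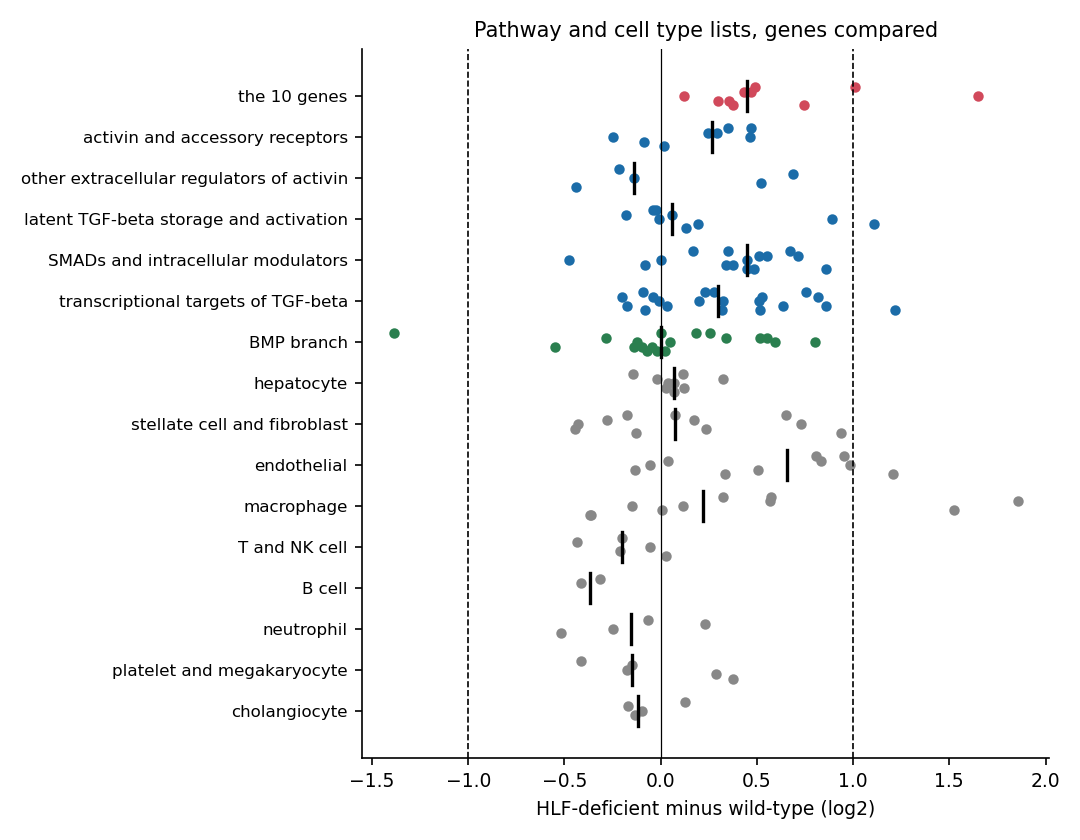
Difference (HLF-deficient minus wild-type, log2) of each gene compared in the pathway lists (the 10 genes in red, other pathway lists in blue, BMP branch in green) and cell type marker lists (grey); each point is a gene, the black bar is the list's median, and dashed lines mark 2-fold. The medians of the 10 genes and the SMAD list lie near 0.45, that of the BMP branch at 0.00 and that of the endothelial markers at 0.66. Vertical offsets within a list only separate points.

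In bulk tumour tissue, a difference in the number of cells of a type and a difference in RNA per cell cannot be told apart. The tissue carried the hepatocyte markers at high levels on both arrays (wild-type log2 levels of 9.25 to 12.6 over 9 genes). Their median difference was 0.07, and 0 passed 2-fold, against 1.5% of all genes higher and 0.364% lower. Of the endothelial markers, 8 of 10 had values above 0, against 58.2% of all genes. As deposited, 1 of 10 was higher by 2-fold, against 1.5% of all genes. With the arrays centred it was 3 of 10, against 2.02%. The median of the endothelial markers was 0.66, or 0.46 after quantile normalization. The log2 of their summed level was 9.35 (wild-type) and 9.94 (HLF-deficient). Lyve1, of sinusoidal and lymphatic endothelium, was highest at 2.31-fold, while Tek was lowest at -0.13. Macrophage markers had a median of 0.22 with 7 of 10 above 0, against 58.2% of all genes, and summed levels of 9.49 and 9.94. Cd14 and Cd68 were 3.62-fold and 2.88-fold higher, which makes 2 of 10 past 2-fold, against 1.5% of all genes. Clec4f of Kupffer cells was lowest at -0.37, and Vsig4 and Cd5l were also below 0, at -0.36 and -0.15. The part of either cell type in the values of the 10 genes was not tested.

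Stellate cell and fibroblast markers had a median of 0.07, which was -0.03 after quantile and -0.06 after loess normalization, with summed levels of 9.29 and 9.47. Of 11 compared, 0 passed 2-fold, against 1.5% of all genes higher and 0.364% lower. Rgs5 had the highest value, 0.94, which passed 2-fold with the arrays centred, and Lhx2 the lowest, -0.44. T and NK cell, platelet and cholangiocyte markers had medians of -0.20, -0.15 and -0.12, which lay within 0.01 of 0 after quantile normalization. B cell and neutrophil markers had medians of -0.37 and -0.16 over 2 and 4 genes compared. After quantile normalization these 2 medians were -0.26 and -0.01. The highest and lowest values in these lists were Nkg7 (0.03) and Cd3e (-0.43), Ppbp (0.38) and Gp5 (-0.41), Epcam (0.13) and Krt19 (-0.17), Cd79b (-0.32) and Pax5 (-0.41), and Retnlg (0.23) and S100a9 (-0.52). The hepatocyte list ran from Alb at -0.15 to Tat at 0.32. Several defining markers of lymphocytes and neutrophils (Cd3d, Ncr1, Klrb1c, Cd79a, Ms4a1, Ly6g and Cxcr2) were below the floor on both arrays.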

How the data were processed

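Total RNA of hepatocellular carcinoma tissue was labelled as biotinylated cDNA for an Affymetrix whole-transcript array, per the labels' protocols. The deposited values are log2 expression made with RMA in Affymetrix Expression Console, per the submitters' processing notes; the log2 scale was read from the values (0.25 to 12.7), and the sources used here do not say which arrays RMA took together.

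Probe sets naming exactly 1 gene were kept, and a gene with several took the one with the highest mean. The floor was the 95th percentile of 1248 chemoreceptor probe sets over both arrays. Calls used a fixed rule of size, 2-fold. The symbols of all 10 members were found by gene ID in the RefSeq table of GRCm38.p6. Alternatives were centring, quantile normalization, a loess trend (span 0.4), mean of probe sets, other floors and a 1.5-fold rule. Named by rule were all members, Hlf and Jun, genes of a pathway list past 2-fold, and each list's highest and lowest. Genes named outside this rule, among them Itgav, Bhlhe40, Cd68, Vsig4 and Cd5l, were picked with their values in view. The members, lists and motifs were chosen with earlier results of these data known. The steps were tested on simulated data. Python 3.11.15, numpy 2.4.6, pandas 2.3.3 and statsmodels 0.14.6 were used.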

Additional observations from a re-analysis of the deposited data

How the results depend on the processing

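Among the 10 genes, the number higher by 2-fold was 2 as deposited and 1 after quantile or loess normalization, where Fst was at 0.81 and 0.84. It was 2 with the arrays centred, and the looser 1.5-fold rule gave 3. The mean of probe sets and the other floor settings left it at 2. They could not alter any member's value, since each gene has 1 probe set, at or above the floor of 2.98 on both arrays. The number lower by 2-fold was 0 under every alternative, including the 1.5-fold rule. Of 69 values of single members under the alternatives, 67 kept their direction and side of 2-fold, and the 2 others were those of Fst. Many of the 69 were fixed in advance, since only centring, quantile and loess normalization could move a member's value. The number higher by 1.5-fold was 3 as deposited, 2 after quantile or loess normalization and 5 after centring. The median of the 10 ranged from 0.32 to 0.57 and that of the TGF-beta targets from 0.13 to 0.42. With the floor at the 99th percentile (3.78), 9 of the 10 were compared, without Tgfb3. Centring moved the median of all genes compared from 0.07 to 0.20 and the number of genes lower by 2-fold from 53 to 32. Leaving out a replicate was not run, since each genotype has 1 array. No paired analysis was possible because each genotype has 1 array and the labels give no replicate numbers. Levels near the floor, such as those of Tgfb3 and Tgfb2, limit what RMA can resolve, since it compresses differences there.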

Other observations

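In the order of protein-coding genes in the RefSeq table, 3 of the inhibin beta subunit genes lie next to a Gli gene, which encodes a transcription factor of the Hedgehog pathway. Gli3 precedes Inhba on chromosome 13, Gli2 precedes Inhbb on chromosome 1, and Gli1 precedes Inhbe on chromosome 10. Gli1 had log2 levels of 4.21 (wild-type) and 3.60 (HLF-deficient), a difference of -0.61 beside 0.75 for Inhbe, and it was between -0.51 and -0.48 under the 3 other scalings. Gli2 was at -0.07 beside 1.65 for Inhbb, turning to between 0.03 and 0.05 under the other scalings, and Gli3 was below the floor on both arrays. This arrangement was looked up after the values were seen.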
